A study of Mus musculus with 30 samples.

Results

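The cytosolic ribosome is built from ribosomal RNA and from the ribosomal proteins of a large (Rpl) and a small (Rps) subunit. Their mRNAs are among the most abundant of a cell, carry a run of pyrimidines that begins with a C at their cap (the 5' terminal oligopyrimidine, or TOP, motif), and are translated under the control of the mTORC1 kinase. In the liver, ribosome content follows feeding and growth. The transcript levels of the genes that encode these proteins were examined in mouse livers. They were chosen by symbol among the 21899 protein-coding genes of a count table of 55335 genes, as Rpl or Rps followed by a digit, together with Rpsa, Rplp0, Rplp1 and Rplp2, without the Rps6k kinases and genes named as pseudogenes, and with at least 10 counts in all 30 libraries. Of 86 symbols that matched, 80 passed. They lay on 19 chromosomes and comprised 42 genes of the large subunit, 31 of the small subunit, the 3 genes of the large-subunit stalk (Rplp0, Rplp1 and Rplp2), and 4 genes that share the naming. The last are Rpl22l1, Rpl7l1 and Rps27l, which are paralogs of Rpl22, Rpl7 and Rps27, and Rps19bp1, a protein that binds RPS19 and regulates SIRT1 and is not a ribosomal protein.

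The study asked how CDDO-Me (bardoxolone methyl), a synthetic triterpenoid that activates the transcription factor NRF2, depends on 1 sensor cysteine of KEAP1, the protein that holds NRF2 down. Livers were taken from adult male wild-type mice, from homozygous C151S knock-in mice, made by CRISPR-Cas9 and carrying serine in place of this cysteine, and from Nrf2-knockout mice, which lack Nfe2l2, the gene for NRF2, in the whole animal, all of the C57BL/6J strain with the albino allele c-2J of Tyr. Each of the 3 genotypes received a single oral dose of vehicle (DMSO, Cremophor-EL and PBS) or of CDDO-Me at 30 µmol/kg, and livers were collected 24 hours later. Each of the 6 groups held 5 mice, each a library of its own, so that p-values measure the spread between mice.

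Libraries held 23667068 to 42073169 gene counts, and the 80 genes took 244114 to 597148 of them, or 0.915 to 1.58% of a library. The labels were checked on mean CPM, counts scaled to a common library size. Nqo1, a target gene of NRF2, ran at 7.14 CPM in vehicle-treated and 64.0 CPM in CDDO-Me-treated wild-type mice, at 6.71 and 7.07 CPM in C151S mice and at 1.96 and 2.57 CPM in Nrf2-knockout mice. Nfe2l2 was lower in the Nrf2-knockout mice but not at 0, at 35.2 against 65.7 CPM with vehicle. All 10 hepatocyte markers were detected in every library. The libraries fell on 2 sides by Arntl, a clock gene. In 11 libraries it lay between −1.18 and 0.90 on the log2 CPM scale and in 19 between 2.53 and 4.8. None of the wild-type libraries was on the low side, against 2 and 3 of the C151S libraries with vehicle and CDDO-Me and 3 and 3 of the Nrf2-knockout ones, and group differences are therefore also given within a side. In whole liver, fewer cells of a type and less RNA per cell cannot be told apart.

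Start sites were read because the TOP motif begins at the first base of the mRNA. RefSeq windows of 300 bases on GRCm38.p6, 250 before and 50 from the annotated first base, were matched for 60 of the 80 genes. A C followed by at least 4 further C or T stood at the annotated first base in 13 of the 60 (21.7%), against 3.01% of 27025 genes with a window. A C followed by at least 7 further C or T began within 10 bases of it in 24 of the 60 (40%), against 9.43% of all. The following 30-base stretches, 15 before and 15 from the first base, show 6 genes with long runs (Rpl38 and Rps15a, with runs as long as that of Rpl28, are left out), then Rpl35a, whose transcript set Nrf2-knockout mice apart, and then the 3 paralogs. They are written 5' to 3' and capitals mark the run of C and T from the annotated first base:
Rpl15: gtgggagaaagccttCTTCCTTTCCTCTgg
Rpl35: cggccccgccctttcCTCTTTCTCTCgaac
Rps10: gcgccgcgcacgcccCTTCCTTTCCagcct
Rps18: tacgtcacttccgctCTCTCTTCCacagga
Rps6: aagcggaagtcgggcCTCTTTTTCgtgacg
Rpl28: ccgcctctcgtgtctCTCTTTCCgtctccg
Rpl35a: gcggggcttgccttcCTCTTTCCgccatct
Rpl22l1: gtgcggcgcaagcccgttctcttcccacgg
Rps27l: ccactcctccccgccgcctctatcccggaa
Rpl7l1: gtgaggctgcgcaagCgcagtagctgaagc
On GRCm38.p6 these are chr14:18270972-18271001, chr2:39005117-39005146, chr17:27635230-27635259, chr17:33955651-33955680 and chr4:86857353-86857382 on the minus strand for the first 5. Rpl28 is at chr7:4792950-4792979, Rpl35a at chr16:33056467-33056496 (1 of its 3 annotated windows), Rpl22l1 at chr3:28805493-28805522 and Rps27l at chr9:66946071-66946100, all on the plus strand, and Rpl7l1 is at chr17:46782642-46782671 on the minus strand. The 7 genes shown first open with a run of C and T, but 6 were chosen for this run and Rpl35a is shown by the window with its longest. Rpl22l1 and Rps27l begin on another base, and the run of Rpl7l1 ends after its first base. Rpl22, the parent of Rpl22l1, also had no C at the annotated first base of its windows. The stretches shown therefore do not compare paralogs with ribosomal protein genes.

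Motifs of general promoter factors were searched on both strands of the same windows. CCGGAA, the core that ETS-family factors such as GABPA bind, was present in 34 of the 60 genes (56.7%), against 16.7% of all genes. GGGCGG, the SP1 box, was present in 39 (65%) against 38.2%, and AAGATGGC, the core bound by YY1, in 6 (10%) against 3.19%. TATAAA stood in 7 (11.7%) against 15.7%, and TGACNNNGC, the core of the antioxidant response element that NRF2 binds, in 12 (20%) against 13.99%. These matches are letters in a window and not measured sites.

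To rank the genes, levels were divided by the union of the exons of all annotated transcripts, which can be longer than the mRNA. Rplp1 of the stalk was the highest of the 80 at 616 CPM per kilobase of this length. It was followed by Rpl4 at 296, Rps15 at 267, Rpl36 at 252 and Rps3a1 at 212. Rps10 was the lowest at 0.547 CPM per kilobase, followed by Rpl13a at 3.91, Rps19bp1 at 7.41, Rps15a at 13.7 and Rpl22l1 at 14.2. The order also follows these annotated lengths, which were 499 bases for Rplp1 and 383 for Rpl36. Rps15a, with 6270 bases, had a mean level of 85.7 CPM. Counting affects the bottom of this order too. Exon bases shared on the same strand with another gene, where reads cannot be assigned, made up 20.6% of Rps10 and 35.4% of Rpl13a, and 26 of the 80 genes shared some. Processed copies of these genes are common in the genome, and reads that fit several places were not counted. Rps10 was also the gene just inside the minimum, with 16 counts in its lowest library. Just outside were Rpl24, with at most 11 counts and 47.0% of its exon bases shared, Rps27rt and Rpl36al, with 2 and 5 counts in their lowest libraries, Rpl39l and Rpl10l, with at most 4 and 1 counts, and Rpl3l.

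The 80 transcripts moved as a block from mouse to mouse. After group means were removed, the mean correlation of a pair of them over the 30 libraries was 0.797, against 0.027 between other genes, and the first principal component held 78.3% of their variance. The correlation of a gene with the mean of the others was above 0.9 for 56 of the 80 and under 0.5 for 2 of them, Rpl23a (0.413) and Rps10 (0.438). These values share the libraries and their scaling and are descriptions. The largest SDs between mice of a group on the log2 scale were those of Rps10 (0.523), Rpl41 (0.398), Rpl12 (0.324), Rplp2 (0.295) and Rpl22l1 (0.294).

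**Figure D1:**
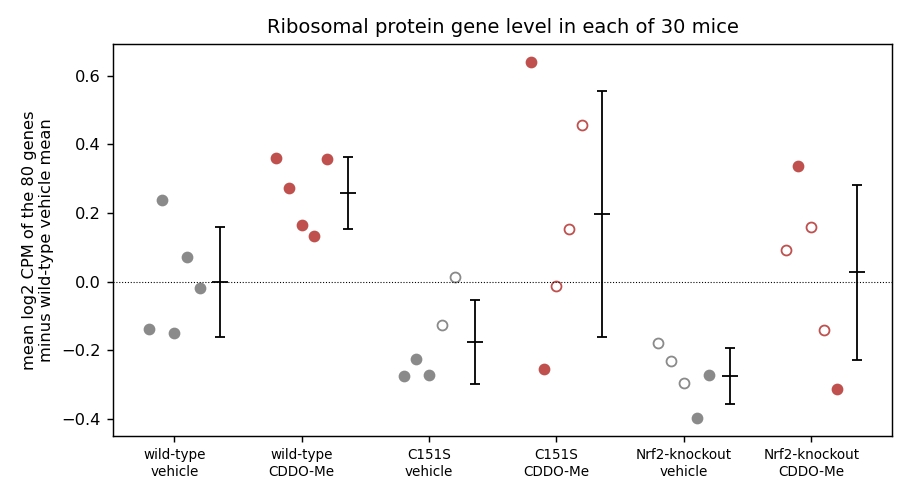
Mean log2 level of the 80 genes in each mouse, relative to the mean of the vehicle-treated wild-type mice, by group (x axis: 6 groups of 5 mice; filled points are libraries high in Arntl, open points low; bars are the mean ± SD). The CDDO-Me means lie above the vehicle means in each genotype, from 0.258 in wild-type to 0.027 in Nrf2-knockout mice, and the C151S mice given CDDO-Me spread the widest.

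The mean log2 level of the 80 genes, relative to vehicle-treated wild-type mice, was −0.14, 0.24, −0.15, 0.07 and −0.02 in these mice themselves, and 0.36, 0.27, 0.17, 0.13 and 0.36 in the wild-type mice given CDDO-Me. In C151S mice it was −0.27, −0.22, −0.27, −0.13 and 0.01 with vehicle and 0.64, −0.25, −0.01, 0.15 and 0.46 with CDDO-Me. In Nrf2-knockout mice it was −0.18, −0.23, −0.30, −0.40 and −0.27 with vehicle and 0.09, 0.34, 0.16, −0.14 and −0.31 with CDDO-Me. Vehicle and CDDO-Me mice overlapped in all 3 genotypes, and the highest C151S mouse given CDDO-Me stood 1.86-fold above the lowest of its group. The group means were 0.258 ± 0.106 (SD, n = 5) in wild-type, 0.196 ± 0.358 in C151S and 0.027 ± 0.255 in Nrf2-knockout mice with CDDO-Me, and −0.176 ± 0.122 in C151S and −0.275 ± 0.082 in Nrf2-knockout mice with vehicle. The highest group mean was that of the CDDO-Me-treated wild-type mice for 46 of the 80 genes and of the CDDO-Me-treated C151S mice for 32. The lowest was that of the vehicle-treated Nrf2-knockout mice for 71 and of the vehicle-treated C151S mice for 8.

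**Figure D2:**
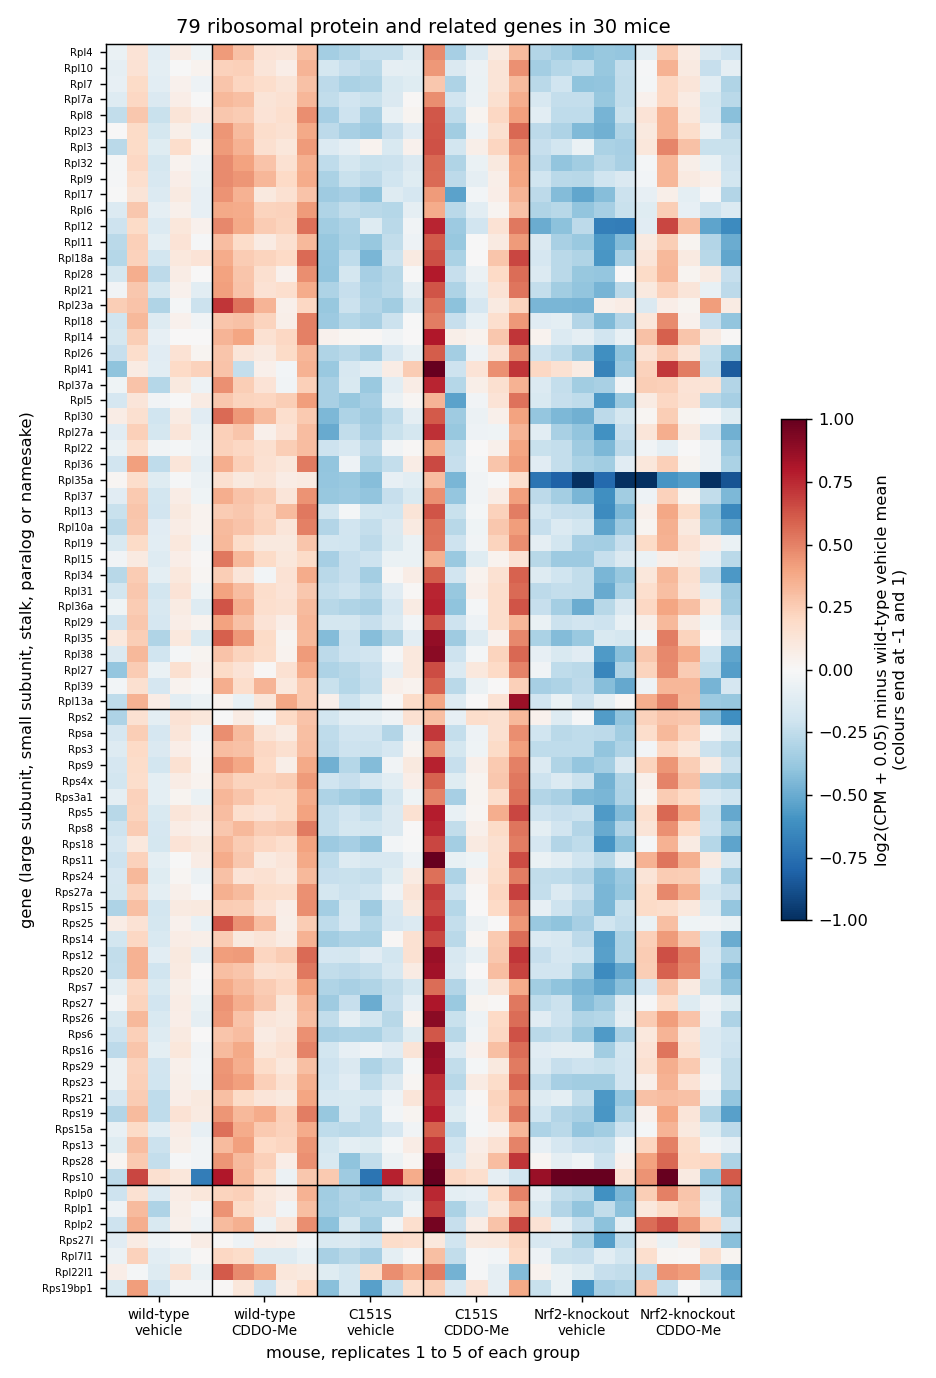
Level of 79 of the 80 genes (y axis) in each of the 30 mice (x axis, by group), as log2(CPM + 0.05) minus the mean of the vehicle-treated wild-type mice (colour scale ends at −1 and 1). Most genes share one colour within a mouse, and the vehicle-treated Nrf2-knockout mice are low for most genes.

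CDDO-Me raised transcripts of ribosomal proteins when its effect was averaged over the 3 genotypes. In this contrast, taken after values had been seen from a fit of all 30 libraries with edgeR's quasi-likelihood test, 70 of the 80 genes rose at a false discovery rate (FDR) under 0.05, against 3.63% of the 15010 genes tested, and none fell, against 2.76%. All 80 log2 differences were positive, with a median of 0.33 (1.26-fold) and a range of 0.07 to 0.45, while the median over all genes was −0.0028. None reached a log2 difference of 0.5, against 0.879% of all genes. The genes that rose were 38 of 42 of the large subunit, 29 of 31 of the small subunit, 3 of 3 of the stalk and 0 of the 4 paralogs and namesakes.

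Rps7, a small-subunit protein, was among the genes with the lowest p. It ran at 120.0, 149, 116, 134 and 127 CPM in vehicle-treated and 167, 159.9, 153, 148 and 169.8 CPM in CDDO-Me-treated wild-type mice. In C151S mice it ran at 105, 103, 104, 109 and 114 CPM with vehicle and 189, 105, 123, 140.5 and 166 CPM with CDDO-Me. In Nrf2-knockout mice it ran at 101, 97.1, 93.6, 89.1 and 96.1 CPM with vehicle and 114, 156, 137, 110.0 and 97.6 CPM with CDDO-Me. The wild-type groups overlapped by 1 mouse on each side, and in both other genotypes 1 treated mouse stayed among the vehicle-treated ones. The mean response was 0.37 on the log2 scale (SE 0.07, edgeR adjusted p = 0.00246).

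Also among the lowest by p were Rpl30 at 0.39 (edgeR adjusted p = 0.00189), Rps3a1 at 0.38 (0.00195) and Rpl32 at 0.35 (0.0026), which belong to both subunits. Of the stalk, which recruits the GTPases of elongation, Rplp0 rose by 0.39 (edgeR adjusted p = 0.00677), Rplp2 by 0.42 (0.0139) and Rplp1 by 0.32 (0.0242). Rpsa, which doubles as the laminin receptor, rose by 0.36 (edgeR adjusted p = 0.00471). Each parent of a paralog rose while its paralog did not pass. Rpl22 rose by 0.23 (edgeR adjusted p = 0.0157) beside 0.08 ± 0.10 (SE) for Rpl22l1 (0.673), Rps27 by 0.36 (0.00864) beside 0.09 for Rps27l (0.341), and Rpl7 by 0.27 (0.00622) beside 0.17 for Rpl7l1 (0.0644). The difference between parent and paralog was not tested. The others of the 10 without a call were Rps19bp1, Rpl34, Rpl13a, Rpl35a, Rpl41, Rps2 and Rps10, with differences of 0.07 (Rps10, SE 0.19) to 0.29 (Rpl41).

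Rplp0 ran at 289, 369, 302, 351 and 359.6 CPM in vehicle-treated and 387, 392, 359, 349 and 423 CPM in CDDO-Me-treated wild-type mice. In C151S mice it ran at 261, 272, 262, 297 and 304 CPM with vehicle and 562, 311, 313, 381 and 469.8 CPM with CDDO-Me, so that every treated mouse lay above every vehicle-treated one. In Nrf2-knockout mice it ran at 313, 280.1, 274, 219 and 244 CPM with vehicle and 393, 472, 402, 302 and 257 CPM with CDDO-Me, with 2 treated mice among the vehicle-treated range. Rplp0 is in wide use as a reference gene for quantitative PCR. Its sister Rplp1 ran at 249 to 384 CPM in the vehicle-treated and 300.2 to 422 CPM in the treated wild-type mice, and these groups overlapped.

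**Figure D3:**
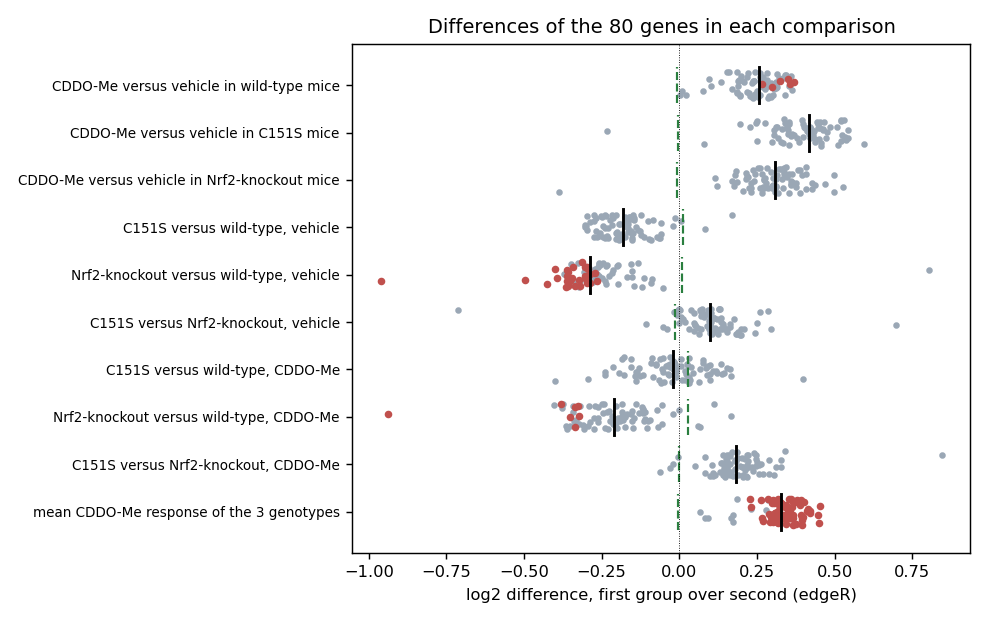
Log2 difference (x axis) of each of the 80 genes (points) in each comparison (y axis), with genes at an FDR under 0.05 in red, the median of the 80 as a black line and the median of all genes tested as a green dashed line. Nearly all points lie to the right of 0 for CDDO-Me against vehicle in each genotype and to its left for Nrf2-knockout against wild-type mice, with Rpl35a far to the left of the rest at −0.96 and −0.94.

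Each genotype alone gave the same direction with fewer calls. In wild-type mice, CDDO-Me against vehicle gave 80 of 80 positive differences with a median of 0.26 (1.2-fold), against −0.0072 over the 13697 genes tested. At an FDR under 0.05, 6 genes rose, against 2.65% of all genes. These were Rpl9 by 0.36 (SE 0.08, edgeR adjusted p = 0.0211), Rps15a by 0.35 (0.0266), Rpl12 by 0.37 (0.0394), Rpl5 by 0.27 (0.0425), Rps7 by 0.30 (0.0431) and Rpl32 by 0.32 (0.0484). Rpl5 binds the 5S RNA and, when in surplus, MDM2. No gene passed the study's joint threshold of an FDR under 0.05 and a log2 difference of at least 0.5 by edgeR (1.66% of all genes rose past it) or by DESeq2, with 61 of the 80 higher at an unadjusted p under 0.05 (8.97% of all genes), while DESeq2 placed 31 at an FDR under 0.05 (4.63% of all genes rose by it). Rpl9 ran at 176, 199.7, 159, 185 and 169 CPM with vehicle and at 246, 241, 223, 204 and 229.8 CPM with CDDO-Me. All treated mice were above all vehicle-treated ones for Rpl9, as for 9 of the 80 genes, against 3.45% of all genes tested. Rpl12 followed the same pattern, at 139 to 184 CPM with vehicle and 188 to 236 CPM with CDDO-Me. The smallest differences were those of 3 of the paralogs and namesakes, Rps27l at 0.0021, Rpl7l1 at 0.0074 and Rps19bp1 at 0.022. The count of 6 depended on single mice, vehicle-treated ones in particular. Without vehicle-treated replicates 1 to 5 it became 1, 39, 0, 3 and 0, against 2.13, 3.61, 1.62, 2.31 and 1.7% of all genes. Without CDDO-Me replicates 1 to 5 it became 0, 0, 3, 7 and 3, against 1.99, 1.95, 2.1, 2.34 and 3.19% of all genes.

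In C151S mice 79 of the 80 differences were positive, with a median of 0.42 (1.33-fold). None passed an FDR of 0.05 by edgeR or by DESeq2, against 0.0142% of the 14128 genes tested by edgeR, and 68 of the 80 were higher at an unadjusted p under 0.05, against 7.21% of all genes. The lowest edgeR adjusted p, 0.347, was reached by Rplp0 (0.53, SE 0.16). All treated mice lay above all vehicle-treated ones for 1 of the 80 genes, against 0.991% of all genes. In Nrf2-knockout mice, 79 of the 80 differences were positive, with a median of 0.31 (1.24-fold). None passed an FDR of 0.05 by edgeR, against 0% of the 14474 genes tested, and 48 were higher at an unadjusted p under 0.05 (3.82% of all genes). DESeq2 placed 5 at an FDR under 0.05, against 0.297% of all genes. The lowest edgeR adjusted p among the 80 was 0.418. All treated mice lay above all vehicle-treated ones for 13 of the 80 genes, against 1.2% of all genes. The single negative genes were Rpl22l1 at −0.23 in C151S and Rps10 at −0.39 in Nrf2-knockout mice, and 78 of the 80 were positive in all 3 genotypes. Of all genes tested, 48.5% were positive in wild-type, 49.1% in C151S and 48.5% in Nrf2-knockout mice, and the share positive in all 3 was not counted. The genotypes share no mice, but the 80 genes moved as a block and are not independent observations.

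Responses were compared between genotypes, where a p that misses the threshold does not show that they were alike. None of the 80 genes passed an FDR of 0.05 in a test of the difference between wild-type and C151S responses (edgeR on 15010 genes, 0.386% of which were higher and 0.0933% lower in wild-type), with 1 of the 80 at an unadjusted p under 0.05 (4.68% and 3.63% of all genes). None passed this edgeR test between wild-type and Nrf2-knockout responses (0.24% and 0.0266% of all genes), with 0 at an unadjusted p under 0.05 (3.59% and 2.68%). None passed it between C151S and Nrf2-knockout responses either (0.0133% and 0%), with 0 at an unadjusted p under 0.05 (1.99% and 2.93%). DESeq2 called none of the 80 in these tests either. The median differences between responses were −0.15, −0.07 and 0.08, and the median SE of such a difference for a single gene was 0.202. The lowest edgeR adjusted p, 0.554, was that of Rpl22l1, with a response 0.58 higher in wild-type than in C151S mice (SE 0.25).

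In C151S and Nrf2-knockout mice the median difference was also positive on both sides of Arntl, in groups of 2 or 3 mice. In C151S mice it was 0.44 among libraries high in Arntl (80 positive) and 0.28 among those low (77 positive). In Nrf2-knockout mice it was 0.36 and 0.29 (79 positive on each). On the high side, mean levels of the 80 genes overlapped between treatments. In C151S mice they were 0.64 and −0.25 with CDDO-Me and −0.27, −0.22 and −0.27 with vehicle. In Nrf2-knockout mice they were 0.34 and −0.31 with CDDO-Me and −0.40 and −0.27 with vehicle. The 80 genes moved as a block, so the numbers of positive genes are not independent. In the 19 libraries high in Arntl alone, 25 of the 80 genes rose at an FDR under 0.05 in the mean response, against 2.55% of all genes. With 1 surrogate variable in the fit 35 rose, against 1.68%. The counts without 1 library ran from 64 to 72.

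**Figure D4:**
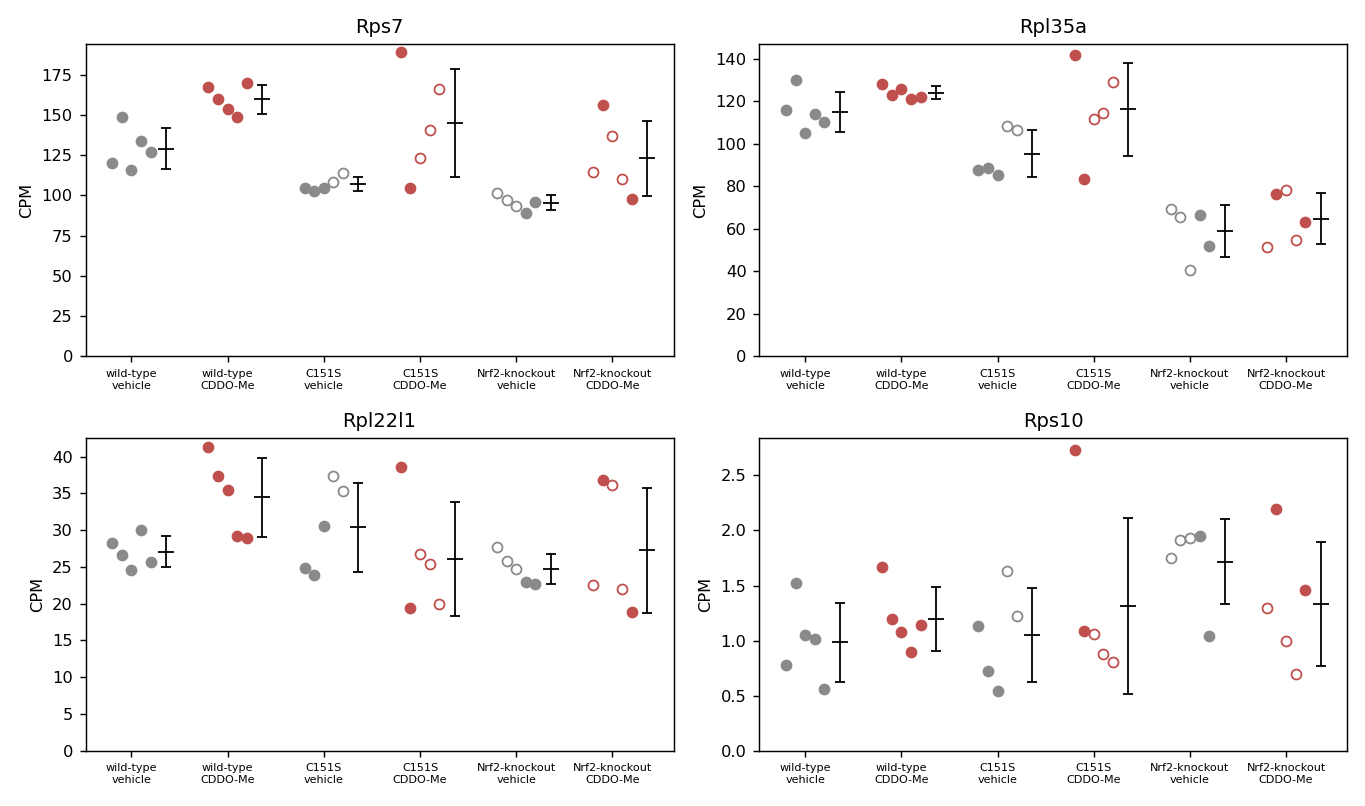
CPM of Rps7, Rpl35a, Rpl22l1 and Rps10 in each mouse (points, filled for libraries high in Arntl and open for low) by group, with the mean ± SD of 5 mice. The mean of Rps7 is higher with CDDO-Me in each genotype, and Rpl35a is lower in all 10 Nrf2-knockout mice than in any of the other 20.

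Nrf2-knockout mice had less ribosomal protein mRNA than wild-type mice when both received vehicle. These wild-type mice are also the controls of the wild-type CDDO-Me comparison. Of the 80 genes, 79 had a negative difference, with a median of −0.29 (a level of 0.819 of wild-type), against 0.0092 over the 14030 genes tested. At an FDR under 0.05, 30 fell, against 8.07% of all genes: 19 of 42 of the large subunit, 10 of 31 of the small subunit, none of the 3 of the stalk, and the paralog Rps27l (−0.27, edgeR adjusted p = 0.0452). All Nrf2-knockout mice lay below all wild-type mice for 26 of the 80, against 7.01% of all genes. At an unadjusted p under 0.05, 61 of the 80 were lower, against 15.8% of all genes. After Rpl35a the lowest p-values belonged to Rps7 (−0.43, edgeR adjusted p = 0.00579), Rpl4 (−0.36, 0.0100), Rpl12 (−0.50, 0.0122) and Rpl39 (−0.36, 0.0133). Rps7 ran at 116 to 149 CPM in wild-type and at 89.1 to 101 CPM in Nrf2-knockout mice, which did not overlap. Rps10 was the one gene on the positive side, at 0.80 (SE 0.27, edgeR adjusted p = 0.0604). The count of 30 became 17, 11 and 15 without wild-type replicates 2, 4 and 5, against 7.3, 5.01 and 4.56% of all genes. It became 14 and 11 without Nrf2-knockout replicates 2 and 3, against 4.96 and 4.89% of all genes. It was 10 after upper-quartile scaling, against 5.1% of all genes, and 4 with 1 surrogate variable, against 3.34%. Among libraries high in Arntl, 2 of which were Nrf2-knockout, the median difference was −0.34 (78 negative).

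With CDDO-Me the same comparison gave 76 negative differences with a median of −0.21, against 0.028 over the 13935 genes tested. At an FDR under 0.05, 7 of the 80 genes fell, a share close to the 6.79% of all genes. At an unadjusted p under 0.05, 28 of the 80 were lower, against 13.8% of all genes. Among the 7 were Rpl35a, Rpl22 (−0.34, edgeR adjusted p = 0.0196), Rpl6 (−0.38, 0.0253), Rps27 (−0.34, 0.0315), Rpl17 (−0.35, 0.0326) and Rpl15 (−0.32, 0.04995). All Nrf2-knockout mice lay below all wild-type mice for 6 of the 80, again close to the share of all genes, 6.2%. The vehicle and CDDO-Me comparisons share no mice, and 6 genes fell in both, which is 20% of the 30 and 85.7% of the 7. How many of all genes fell in both was not counted, so whether this overlap is particular to the 80 was not tested. The count of 7 became 1, 2 and 4 without wild-type replicates 1, 2 and 3, against 4.82, 5.02 and 4.87% of all genes. It became 4, 22, 2, 3 and 3 without Nrf2-knockout replicates 1 to 5, against 6.82, 7.66, 4.73, 6.09 and 7.02% of all genes. Among libraries high in Arntl the median difference was −0.26 (78 negative).

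Rpl35a, a large-subunit protein whose gene lies on chromosome 16 (chr16:33056453-33060189, plus strand) and which is mutated in Diamond-Blackfan anemia, was the gene with the largest difference between genotypes. With vehicle it ran at 116, 129.9, 105, 114 and 110.1 CPM in wild-type mice, at 87.7, 88.5, 85.6, 108 and 107 CPM in C151S mice and at 69.3, 65.5, 40.7, 66.7 and 51.9 CPM in Nrf2-knockout mice. With CDDO-Me it ran at 128, 123, 126, 121 and 122 CPM in wild-type, at 142, 83.5, 112, 115 and 129 CPM in C151S and at 51.7, 76.4, 78.1, 54.9 and 63 CPM in Nrf2-knockout mice. The highest of the 10 Nrf2-knockout mice, at 78.1 CPM, was below the lowest of the other 20, at 83.5 CPM. Against wild-type it fell by 0.96 on the log2 scale with vehicle (SE 0.13, edgeR adjusted p = 0.00127) and by 0.94 with CDDO-Me (SE 0.12, 0.000330). It was the only one of the 80 genes past the joint threshold in these comparisons, against 4.13% and 4.85% of all genes that fell past it. Both calls held in every alternative and without any single mouse, with differences between −0.86 and −1.02 with vehicle and between −0.83 and −1.01 with CDDO-Me. Against Nrf2-knockout mice, the level in C151S mice was higher by 0.70 with vehicle (SE 0.15, edgeR adjusted p = 0.0763) and by 0.85 with CDDO-Me (SE 0.16, 0.0949), which did not pass. Its exons share no bases with another gene on the same strand. None of its windows matched TGACNNNGC, which was present in only 20% of the 60 genes with a window and 13.99% of all genes. AAGATGGC was present, as in 10% and 3.19%. Whether NRF2 binds at this gene was not tested.

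C151S mice lay between the other genotypes with vehicle. Against wild-type, 77 of the 80 differences were negative with a median of −0.18. None passed an FDR of 0.05 by edgeR (4.75% of 13946 genes fell), and 32 were lower at an unadjusted p under 0.05 (13.2% of all genes). DESeq2 placed 12 at an FDR under 0.05, against 7.24% of all genes. The lowest edgeR adjusted p, 0.0519, belonged to Rps7 (−0.27). Leaving out wild-type replicate 3 or C151S replicate 5 gave 1 gene at the FDR alone by edgeR, against 3.02 and 4.46% of all genes. Leaving out C151S replicate 4 gave 2 at the FDR alone, against 7.25%. All C151S mice lay below all wild-type mice for 3 of the 80, against 5.38% of all genes. Among libraries high in Arntl the median difference was −0.26, and 27 of the 80 fell at an FDR under 0.05 in a fit of those libraries, against 12.8% of all genes in that fit, as did 27 with the Arntl side as a covariate, against 12.6%. Against Nrf2-knockout mice, 71 of the 80 differences were positive with a median of 0.10, or 0.09 on the high and 0.17 on the low side of Arntl. None passed an FDR of 0.05 by edgeR (0.314% of 14323 genes rose), 7 were higher and 1 was lower at an unadjusted p under 0.05 (5.96% and 5.38% of all genes), and DESeq2 called 1. With CDDO-Me, C151S and wild-type mice gave 34 positive and 46 negative differences with a median of −0.02, or −0.07 among libraries high in Arntl. None passed an FDR of 0.05 by edgeR or by DESeq2 (by edgeR 2.99% of 13844 genes rose and 3.79% fell), and 0 had an unadjusted p under 0.05 (13% and 11.6% of all genes). The lowest edgeR adjusted p, 0.207, was that of Rpl22l1 (−0.40). Against Nrf2-knockout mice given CDDO-Me, C151S mice gave 76 positive differences with a median of 0.18, or 0.18 on the high and 0.17 on the low side. None passed an FDR of 0.05 by edgeR (0.127% of 14186 genes rose), 1 was higher at an unadjusted p under 0.05 (3.82% of all genes), and DESeq2 called 1. By edgeR in all libraries, the joint threshold too gave 0 genes in these comparisons.

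Rpl22l1 had the single negative CDDO-Me difference in C151S mice, and Rps10 that in Nrf2-knockout mice. Rpl22l1, a paralog of Rpl22 that acts in splicing as well as in the ribosome, ran at 28.2, 26.6, 24.6, 30.1 and 25.7 CPM in vehicle-treated and 41.4, 37.4, 35.4, 29.2 and 28.9 CPM in CDDO-Me-treated wild-type mice. In C151S mice it ran at 24.9, 23.9, 30.6, 37.3 and 35.3 CPM with vehicle and 38.6, 19.4, 26.8, 25.4 and 19.9 CPM with CDDO-Me, and in Nrf2-knockout mice at 22.7 to 27.6 CPM and 18.8 to 36.8 CPM. In wild-type mice 3 of the 5 treated mice were above all vehicle-treated ones, and vehicle and CDDO-Me groups overlapped in each genotype. Rps10, a small-subunit protein, was counted at 0.563 to 1.52 CPM in vehicle-treated wild-type mice and at 1.75, 1.91, 1.93, 1.95 and 1.04 CPM in vehicle-treated Nrf2-knockout mice. With CDDO-Me it was counted at 0.898 to 1.67 CPM in wild-type, at 2.73, 1.09, 1.06, 0.877 and 0.809 CPM in C151S and at 1.3, 2.19, 0.998, 0.698 and 1.46 CPM in Nrf2-knockout mice. Its groups overlapped in each comparison, and its counts rest on the part of the gene that was counted uniquely.

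Other genes of translation were read in the mean CDDO-Me response, beside the 3.63% of all genes that rose. Of 7 elongation factor genes, whose mRNAs carry a TOP motif as well, all 7 differences were positive with a median of 0.22 and 4 rose at an FDR under 0.05: Eef1b2 by 0.41 (edgeR adjusted p = 0.0037), Eef1g by 0.34 (0.0059), Eef1a1 by 0.18 (0.034) and Eef1d by 0.21 (0.038). Rack1, a ribosomal component under another name, rose by 0.34 (edgeR adjusted p = 0.0167). Of 15 other TOP mRNAs 3 rose (Eif3h, Tpt1 and Btf3) with a median of 0.10 over the list. Of 35 genes of ribosome assembly 3 rose (Nob1, Bop1 and Rrs1) with a median of 0.14. All 35 differences were positive too, at 0.03 to 0.45. Of 77 genes of the mitochondrial ribosome, a separate particle, 4 rose with a median of 0.09 and a range of −0.16 to 0.30. Of 19 genes that control TOP mRNA translation 1 rose, the S6 kinase Rps6kb1, by 0.24 (edgeR adjusted p = 0.028). None of 9 snoRNA host RNAs and none of 23 ribosomal pseudogenes passed, and the median of the latter was 0.32. None of these genes fell.

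In Nrf2-knockout against wild-type mice given vehicle, 1 of the 7 elongation factor genes fell, Eef1b2 (−0.34, edgeR adjusted p = 0.0385), and Rack1 was at −0.31 (0.051). Of the TOP control genes 3 of 19 fell, Rps6kb1 by 0.48, Eif4e, the cap-binding protein, by 0.40 and Rheb, the activator of mTORC1, by 0.26. Of the 35 assembly genes 2 fell and 1 rose, and over all genes 8.07% fell and 8.37% rose. With CDDO-Me, where 6.79% of all genes fell, 5 of the 9 snoRNA host RNAs fell in Nrf2-knockout mice, with a median of −0.54, and 4 of the 35 assembly genes fell.

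**Figure D5:**
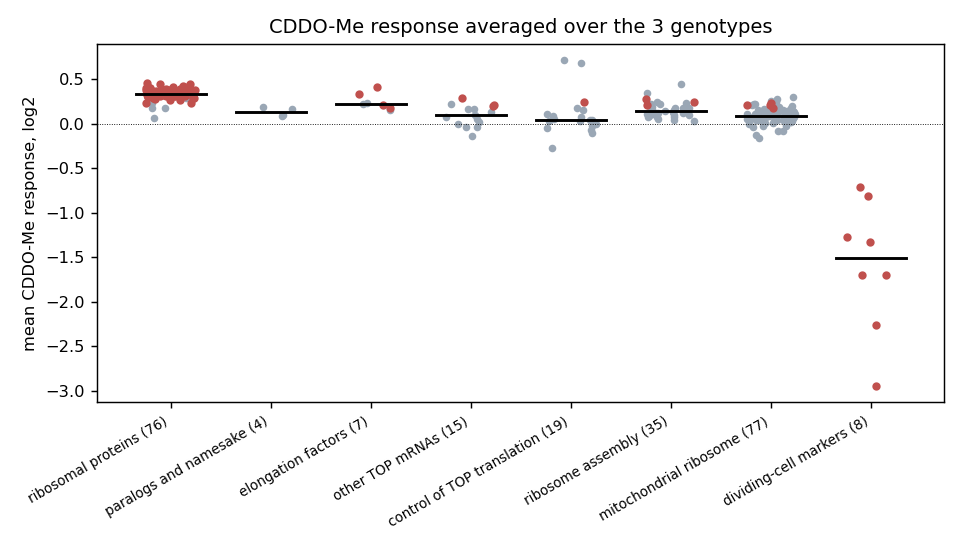
Mean CDDO-Me response over the 3 genotypes (y axis, log2) of the genes of each list (points), with genes at an FDR under 0.05 in red. All ribosomal proteins, paralogs and namesakes, elongation factors and ribosome assembly genes lie above 0. The mitochondrial ribosome lies on both sides of 0, from −0.16 to 0.30, and all markers of dividing cells lie below 0.

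Other cell types and library properties moved with these comparisons. In the mean CDDO-Me response all 8 markers of dividing cells fell, with a median of −1.51, and their summed level ran at 5.64 to 15.9 CPM with vehicle and 3.38 to 5.38 CPM with CDDO-Me in wild-type mice, at 15.1 to 27.7 and 3.27 to 8.69 CPM in C151S mice and at 9.54 to 46.5 and 6.39 to 26.3 CPM in Nrf2-knockout mice. Of the hepatocyte markers 2 of 10 fell, and 1 of 5 of the erythroid and 1 of 5 of the neutrophil markers, while none of the Kupffer cell, lymphocyte, endothelial, stellate and cholangiocyte markers passed. In Nrf2-knockout against wild-type mice given vehicle, 4 of 7 stellate and 3 of 7 endothelial markers rose, as did 2 of 3 neutrophil and 1 of 10 lymphocyte markers, while 3 of 5 erythroid markers and 1 of 10 hepatocyte markers fell. The summed stellate markers ran at 174 to 264 CPM in wild-type and 189.9 to 521 CPM in Nrf2-knockout mice, and the endothelial ones at 171 to 210.5 and 209.6 to 340.1 CPM. The share of reads fitting several places was 15.1% on average in vehicle-treated and 14.03% in CDDO-Me-treated wild-type mice and 11.97 to 12.8% in the other groups. The part of these differences in the ribosomal protein results was not tested.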

How the data were processed

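Livers of 30 mice were sequenced as stranded mRNA libraries (TruSeq) with paired reads of 50 bases. The authors assessed reads with fastp, aligned them with STAR 2.7.7 to mm10 and deposited raw counts per gene for GENCODE M23, on 1 strand and without reads that fit several places. The files pair no symbols with IDs, and these came from GENCODE M21 on GRCm38 (55154 of 55335 IDs matched). Counts were tested in edgeR 4.0.16 (R 4.3.3) with filterByExpr, TMM scaling and the legacy quasi-likelihood F-test, without covariates and with only the 2 groups compared. The study's own model held the date of sample isolation, which no label gives, so that no such term was fitted and its part was not tested. P-values were adjusted over all genes tested by the Benjamini-Hochberg method. Pairwise calls needed an FDR under 0.05 and a log2 difference of at least 0.5. Counts at the FDR alone, the rule for differences between responses and for the mean response, are named as such. Differences between responses and the mean response came from 1 fit of all 30 libraries, and the mean response was added after values had been seen, as were fits of the libraries high in Arntl alone. CPM used TMM library sizes, and mean levels are log2 CPM with a prior count of 2. Of 60 pairs of mice within a group none were duplicates, the lowest chi-square per degree of freedom being 16.6.

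The genes named were the 5 with the lowest p in each comparison and direction, paralogs with their parents, the stalk genes and Rpsa, the 5 highest and lowest per length, the 5 most variable, those at the count minimum and up to 4 of each other list. Rpl23a, Rpl34, Rps2 and the sixth and seventh genes of a count were named after their values were seen. The 80 genes and all lists were chosen with earlier results of these data known. Alternatives were upper-quartile scaling, DESeq2 size factors, TMM without the 80 genes, DESeq2 1.42.0, the newer edgeR fit, other filters, the other fold threshold, a replicate block, 1 surrogate variable (sva 3.50.0), the Arntl side as a covariate, a gene length offset, 1 fit of all libraries and leaving out each mouse. The tests were checked on simulated counts. Some genes counted among the 80 and in the other lists are not reported here by name.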

Additional observations from a re-analysis of the deposited data

Results flagged for a closer look

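Of 66 groups of 5 values examined (11 quantities in 6 groups), 3 held a mouse far from the other 4, and chance alone gives such a mouse in about 1 in 20 groups. Rps10 was at 2.73 CPM in CDDO-Me-treated C151S replicate 1, against 1.09 CPM in the nearest mouse. It was at 1.04 CPM in vehicle-treated Nrf2-knockout replicate 5, where the nearest mouse was at 1.75 CPM. Rplp1 was at 299 CPM in vehicle-treated C151S replicate 5, against 253 CPM in the nearest mouse.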

How the results depend on the processing

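The joint threshold gave no gene in wild-type mice treated with CDDO-Me, and the FDR alone gave 6. In Nrf2-knockout against wild-type mice given vehicle, it gave 1 gene, and 30 at the FDR alone, 2 each with upper-quartile scaling, TMM without the 80 genes, DESeq2, at least 10 counts in every library, 1 surrogate variable or a length offset, 3 in libraries high in Arntl and 5 with the Arntl side as a covariate. Without 1 mouse it gave 1 to 2, with 2 without wild-type replicates 1, 2 or 3 or Nrf2-knockout replicates 2, 3 or 5. With CDDO-Me it gave 1, and 7 at the FDR alone, and 1 to 3 without 1 mouse, with 3 without Nrf2-knockout replicate 2. C151S against Nrf2-knockout mice gave 0, and 1 with DESeq2, no filter or 1 fit of all libraries with vehicle and with CDDO-Me, 1 with 1 surrogate variable with vehicle, and 0 to 1 without 1 mouse with CDDO-Me (1 without C151S replicate 2). C151S against wild-type mice with CDDO-Me gave 0 to 1 without 1 mouse (1 without C151S replicate 1). The mean response gave 70 genes, but 0 at a log2 difference of 0.5, 35 with 1 surrogate variable and 25 in libraries high in Arntl, a fit with fewer samples. At the FDR alone, DESeq2 and upper-quartile scaling gave 31 and 4 genes in wild-type mice, 50 and 11 (1 higher in each) in Nrf2-knockout against wild-type mice with vehicle, and 15 and 3 with CDDO-Me, where 1 surrogate variable gave 34, 4 and 35. The cause of these changes was not tested.

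Replicate numbers were not treated as pairs, and at most 4 of 5 pairs in a comparison correlated above 0.1 over 2000 genes. The mean correlation of mice with the same number was 0.245 in C151S against wild-type mice with CDDO-Me, against −0.063 for other pairs. It was 0.194 against −0.049 between treatments in Nrf2-knockout mice, and −0.214 against 0.051 in C151S against Nrf2-knockout mice with vehicle. This check cannot tell whether mice of the same number shared a batch. With the replicate block, Nrf2-knockout against wild-type mice with vehicle gave 3 genes at the joint threshold and the mean response 72. The median difference of C151S against wild-type mice with CDDO-Me, and those of wild-type or C151S against Nrf2-knockout responses, changed sign in some alternatives or without 1 mouse, and the other medians kept theirs.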
